A study of Mus musculus with 57 samples.

Results

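Gene expression in tissue that held both the preoptic area and the bed nucleus of the stria terminalis (BNST/POA) was compared between mice at day 60 and mice at day 4 after birth. All BNST/POA arrays of these 2 ages were used, 14 at day 60 and 15 at day 4, which made 29 of the 57 arrays of the series. The other 28 measured the striatum. Each array held RNA pooled from 3 C57BL/6J mice and was an Illumina MouseRef-8 bead array, which reports a fluorescence intensity for each probe. At day 60 there were 4 pools of XX+T mice (females given 100 µg testosterone propionate on the day of birth), 5 of XY mice (males given oil) and 5 of XX mice (females given oil). At day 4 there were 5 pools of XX+T, 5 of XY and 5 of XX mice, given the same injections. The day 60 mice of all 3 groups had also been gonadectomized at day 21 and given a testosterone capsule at day 45, while the day 4 mice had not, so age cannot be told apart from gonadectomy and the capsule. Each pool holds several mice and the litters or cages behind it are not given, so p-values measure only the spread between pools.

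The BNST and POA are neighbouring forebrain nuclei of neurons that release γ-aminobutyric acid (GABA), glutamate and many peptides, and they take part in mating, parental care, gonadotropin release and responses to threat. At day 4 the rodent forebrain still holds dividing precursors and growing axons, and myelin, the lipid sheath that oligodendrocytes wrap around axons, has barely begun to form. By day 60 the mouse is a young adult, with myelinated tracts, mature glia and established synapses.

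Levels below are log2 intensities after quantile normalization over all 57 arrays, and a difference is the mean of the 3 day 60 groups minus the mean of the 3 day 4 groups, so that 1 is a 2-fold difference. A probe was detected on an array when its detection p-value was under 0.05. The number of detected probes was 11687 to 12732 on 11 of the day 60 arrays, 13168 to 13350 on the 3 other day 60 arrays, and 12754 to 13845 on the day 4 arrays. The interquartile range of raw log2 intensity, a measure of how widely an array spreads its signal, was 1.22 to 1.65 on those 11 day 60 arrays, 1.76 to 2.10 on the 3 others and 1.68 to 2.13 at day 4. The 3 day 60 arrays that stood apart were XX+T pools 5 and 6 and XY pool 6.

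Age separated the arrays at a large share of the genes. Of 13731 probes kept, 9872 differed between ages at an adjusted p under 0.05 (limma, Benjamini-Hochberg), 4766 higher and 5106 lower at day 60. Counted as 9560 genes with 1 probe each, 3308 were higher (34.6%) and 3615 lower (37.8%), and these shares are the background for every count below. A difference of over 2-fold was seen in 515 genes that were higher (5.39%) and 539 that were lower (5.64%). At 1625 genes (17%) no day 60 array overlapped any day 4 array. The split of directions depended on the scaling. Subtracting the median from every array, without quantile normalization, moved the median difference over all probes to 0.16, with 6744 probes higher and 3873 lower (63.5% higher, against 48.3%). Without the 3 arrays that stood apart, 10800 probes differed, 5294 higher and 5506 lower. The plot of called genes by gene list gives the counts that follow in the order of each list's median difference, whose value over all 9560 genes was 0.00.

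**Figure D1:**
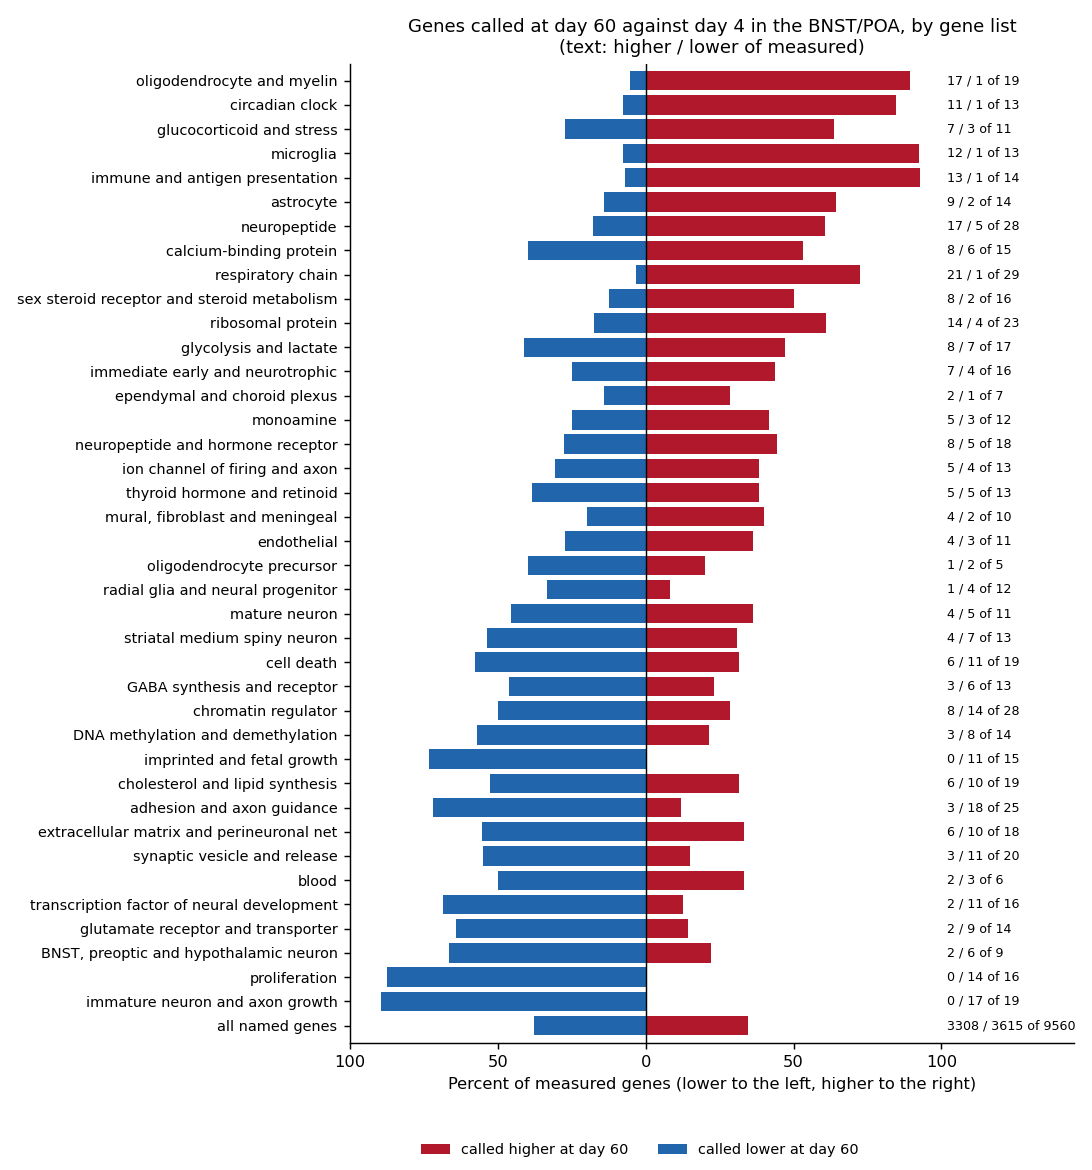
Percent of the measured genes of each gene list called higher (right, red) or lower (left, blue) in the BNST/POA at day 60 against day 4, with the counts at the right edge and all 9560 genes at the bottom. Lists of myelin, clock, microglial and immune genes lean to the right, and lists of immature neurons, proliferation and imprinted genes hold no gene called higher with this scaling.

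Sequences of 6 promoters are given first, because they belong to members of the myelin list, which had the highest median difference, and of the proliferation list, in which no gene rose. They are RefSeq windows of 300 bases, 250 before and 50 after the annotated start, in build GRCm38.p6, written along the strand of the gene. In the first 4, from genes of DNA replication and cell division that fell at day 60, capitals mark TTTGAA (the cell cycle homology element), CCAAT (bound by NF-Y) and TTTGGCGC or TTTCGCGC (forms of the E2F site), each on either strand; the 2 E2F forms overlap each other in Mcm5 and at 1 place in Mcm6. In the last 2, from myelin genes that rose at day 60, capitals mark ACAAAG (a core of the SOX site) on either strand.
Cdk1, chr10:69352863-69353162, minus strand: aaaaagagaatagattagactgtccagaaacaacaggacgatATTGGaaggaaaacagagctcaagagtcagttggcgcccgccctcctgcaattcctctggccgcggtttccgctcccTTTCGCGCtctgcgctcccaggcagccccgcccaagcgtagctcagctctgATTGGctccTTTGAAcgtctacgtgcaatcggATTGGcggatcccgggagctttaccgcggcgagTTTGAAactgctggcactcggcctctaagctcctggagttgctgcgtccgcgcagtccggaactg
Top2a, chr11:99024140-99024439, minus strand: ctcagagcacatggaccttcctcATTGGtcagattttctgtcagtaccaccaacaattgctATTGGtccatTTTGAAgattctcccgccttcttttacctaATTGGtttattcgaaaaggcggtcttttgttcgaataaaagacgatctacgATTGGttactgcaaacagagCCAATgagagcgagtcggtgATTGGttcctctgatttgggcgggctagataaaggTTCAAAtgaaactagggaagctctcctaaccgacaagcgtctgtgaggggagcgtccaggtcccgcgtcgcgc
Mcm5, chr8:75109259-75109558, plus strand: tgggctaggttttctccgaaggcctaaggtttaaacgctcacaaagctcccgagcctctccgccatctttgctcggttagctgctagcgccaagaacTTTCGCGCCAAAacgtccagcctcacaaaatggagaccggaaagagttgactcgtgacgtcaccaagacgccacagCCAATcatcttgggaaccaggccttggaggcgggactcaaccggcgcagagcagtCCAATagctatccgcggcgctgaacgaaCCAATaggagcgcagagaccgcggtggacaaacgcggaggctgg
Mcm6, chr1:128359656-128359955, minus strand: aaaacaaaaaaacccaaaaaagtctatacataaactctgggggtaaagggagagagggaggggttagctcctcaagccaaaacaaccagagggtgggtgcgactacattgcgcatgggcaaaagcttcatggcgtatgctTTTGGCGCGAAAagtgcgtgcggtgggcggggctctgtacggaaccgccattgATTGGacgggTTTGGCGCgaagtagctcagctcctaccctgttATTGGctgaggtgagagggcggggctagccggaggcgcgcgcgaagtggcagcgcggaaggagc
Opalin, chr19:41077064-41077363, minus strand: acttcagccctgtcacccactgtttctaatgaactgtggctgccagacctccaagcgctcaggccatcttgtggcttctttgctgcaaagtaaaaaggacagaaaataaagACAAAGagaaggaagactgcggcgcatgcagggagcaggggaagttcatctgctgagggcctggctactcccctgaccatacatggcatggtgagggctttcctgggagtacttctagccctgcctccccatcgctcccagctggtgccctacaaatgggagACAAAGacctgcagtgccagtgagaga
Mobp, chr9:120149492-120149791, plus strand: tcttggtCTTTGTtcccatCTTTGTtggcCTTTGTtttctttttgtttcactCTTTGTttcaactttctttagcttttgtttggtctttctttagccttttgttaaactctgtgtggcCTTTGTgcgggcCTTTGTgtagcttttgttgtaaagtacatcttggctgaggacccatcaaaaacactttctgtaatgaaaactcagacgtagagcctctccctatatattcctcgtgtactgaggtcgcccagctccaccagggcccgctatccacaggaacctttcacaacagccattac

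Of the 14 proliferation genes that fell, 13 had such a window. Among them CCAAT was present in 10, TTTGAA in 5 (Cdk1, Cenpa, Hmgb2, Mcm2 and Top2a), TTTGGCGC in 3 (Mcm3, Mcm5 and Mcm6) and TTTCGCGC in 4 (Cdk1, Mcm5, Mcm6 and Mcm7). Over the windows of 7781 measured genes, the shares were 38.7% for CCAAT, 11.3% for TTTGAA, 0.823% for TTTGGCGC and 0.72% for TTTCGCGC. The window of Top2a held 6 CCAAT matches and that of Cdk1 held 3. Of the 17 myelin genes that rose, 11 had a window and 5 of these held ACAAAG, which was present in 13.5% of all windows; Mobp held 6 matches and Opalin 2. These matches are a description of the letters and were not tested.

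Genes of oligodendrocytes, the cells that make myelin, showed the largest differences of any list. Of 19 measured members, 17 rose, 1 fell and 1 did not pass the test, with a median difference of 3.03, and 16 had no overlap between ages. The mean level over the 19 genes was 11.62 to 12.19 on the day 60 arrays, against 8.74 to 9.14 on the day 4 arrays. Mal, a proteolipid of compact myelin, was 11.99, 12.68 and 12.83 (lowest, median and highest) at day 60, against 7.10, 7.20 and 7.43 at day 4, where 4 of 15 arrays detected it. Its difference was 5.32 (SE 0.06, limma adjusted p = 2.63e-30). Because 11 of 15 day 4 arrays did not detect Mal, the size depends on the background and was 7.21 with normexp correction. Every day 60 array lay above every day 4 array by more than the spread within either age. Mbp, the major protein of the inner face of the sheath, was 14.88 to 15.17 at day 60, against 9.37 to 11.28 at day 4, a 23.9-fold difference (log2 4.58, SE 0.12, adjusted p = 6.67e-22). The day 4 arrays spread more widely at Mbp than the day 60 arrays did.

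Several myelin genes were detected on no day 4 array and on all 14 day 60 arrays, so only a lower bound of the change can be given. The bound sets the mean at day 60 against, for each day 4 array, the higher of the probe's own signal and the lowest signal among detected probes. Mobp, a basic protein of the sheath, was at least 31.7-fold higher at day 60 (adjusted p = 1.89e-29) and Opalin, a membrane protein of mature oligodendrocytes, at least 31.6-fold (adjusted p = 9.85e-26). Mog, on the outer surface of the sheath, was at least 19.2-fold higher, at 11.12 to 11.90 on the day 60 arrays. Ppp1r14a, an inhibitor of myosin phosphatase, was at least 6.73-fold higher. Claudin 11 (Cldn11), which seals the layers of the sheath, rose 13.4-fold and transferrin (Trf), the iron carrier, 11.7-fold. Cryab, a small heat shock protein, rose 11.4-fold, and Pdlim2 and Evi2a rose 12.3-fold and 11.5-fold. Of 5 measured markers of oligodendrocyte precursors, 2 fell, 1 rose and 2 did not pass. Pdgfra, the growth factor receptor of precursors, was 8.71, 9.28 and 10.07 at day 60, against 9.84, 10.47 and 11.30 at day 4, and fell 2.25-fold (log2 -1.17, SE 0.15, adjusted p = 1.21e-07), with overlap between ages. Gpr17, a receptor of cells about to differentiate, fell 1.97-fold, and the 1 member of the myelin list that fell was Olig1, the lineage transcription factor (log2 -0.57, adjusted p = 0.00758).

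**Figure D2:**
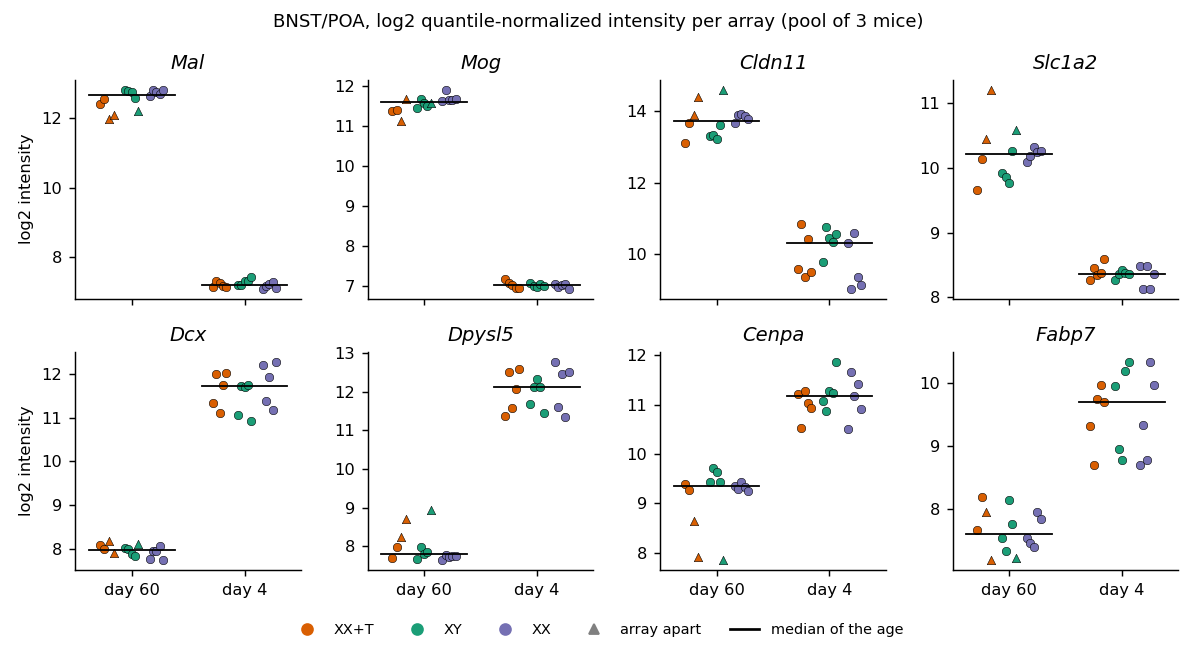
Log2 intensity on each of the 29 BNST/POA arrays for 4 genes that rose (top: Mal, Mog, Cldn11, Slc1a2) and 4 that fell (bottom: Dcx, Dpysl5, Cenpa, Fabp7), with day 60 left of day 4. Points are pools coloured by group, triangles are the 3 arrays that stood apart and lines are medians; none of the 8 genes overlaps between ages.

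Astrocyte genes mostly rose, with exceptions. Of 14 measured, 9 rose, 2 fell and 3 did not pass (median 0.47). The largest change was in Ntsr2, a neurotensin receptor of astrocytes, at 12.21, 12.60 and 13.20 at day 60, against 8.75, 9.15 and 9.45 at day 4 (log2 3.54, SE 0.09, 11.6-fold, adjusted p = 5.06e-22). Slc1a2, the main astrocytic glutamate transporter, was 9.65, 10.21 and 11.21 at day 60, against 8.13, 8.37 and 8.59 at day 4, and rose 3.62-fold (adjusted p = 1.25e-14). Its highest values were on the arrays that stood apart, and the other 11 day 60 arrays also lay above all day 4 arrays. Aldoc, an astrocytic glycolytic enzyme, rose 2.95-fold and S100b, a calcium-binding protein seen on no day 4 array, at least 1.90-fold. Etnppl, an astrocytic enzyme of phospholipid breakdown, was at least 9.24-fold higher. Without the 3 arrays that stood apart, 7 astrocyte genes rose and 3 fell.

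The microglial and immune genes of the chosen lists mostly rose, by smaller amounts. Of 13 microglial genes, 12 rose and 1 fell (median 0.78), and of 14 genes of immunity and antigen presentation 13 rose and 1 fell (median 0.64). The exceptions were Laptm5, a lysosomal membrane protein of blood-derived cells (log2 -0.68), and Serping1, the inhibitor of complement C1 (log2 -0.46). Tyrobp, the signalling adaptor of microglial receptors, was 8.46, 9.76 and 10.25 at day 60, against 7.99, 8.35 and 8.78 at day 4 (log2 1.20, SE 0.15, adjusted p = 7.38e-08), and its partner Trem2 rose 1.90-fold. C1qb, a chain of complement C1q, was 10.80, 11.03 and 11.25 at day 60, against 9.79, 10.18 and 10.45 at day 4 (1.87-fold, adjusted p = 7.11e-14), with no overlap, whereas Tyrobp and Trem2 overlapped. Il33, an alarmin of glial nuclei, rose 5.05-fold, and the interferon-induced Ifi27 rose 3.89-fold. In bulk tissue, more cells of a type and more RNA per cell cannot be told apart, here or in the other cell lists.

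Genes of immature neurons were mostly lower at day 60. Of 19 measured, 17 fell, none rose and 2 did not pass (median -0.96), and 15 did not overlap; under median centring 15 fell and 1 rose. The 4 largest falls were in 3 members of the dihydropyrimidinase-like family, which act on growth cone microtubules, and in doublecortin. Dpysl3 was 7.49, 8.10 and 9.35 at day 60, against 12.14, 12.91 and 13.60 at day 4, a 25.5-fold difference (log2 -4.67, SE 0.18, adjusted p = 3.19e-18). Dpysl5 fell 16.7-fold and Crmp1 9.08-fold. Doublecortin (Dcx), the microtubule protein of migrating neurons, was 7.73, 7.98 and 8.19 at day 60, against 10.92, 11.73 and 12.28 at day 4 (log2 -3.65, SE 0.12, 12.6-fold, adjusted p = 7.34e-20). All 14 day 60 arrays still detected it. St8sia2, which makes the polysialic acid of the neonatal neural cell adhesion molecule, was detected on 2 of 14 day 60 arrays and on all 15 day 4 arrays and fell 7.67-fold. Cxadr, an adhesion protein of the immature brain, fell 16.8-fold, Sbk1, a kinase, 12.1-fold, and Islr2, an axon guidance coreceptor, 9.38-fold. The adhesion and guidance list ran the same way, with 18 of 25 genes lower and 3 higher (median -0.30), led by the cell adhesion molecule Chl1 (3.24-fold, no overlap) and the semaphorin receptor Nrp1 (2.53-fold).

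Cell cycle genes were lower in nearly every case. Of 16 proliferation genes, 14 fell, none rose and 2 did not pass (median -0.79). Cenpa, the histone H3 variant of centromeres, was 7.85, 9.35 and 9.71 at day 60, against 10.51, 11.19 and 11.88 at day 4 (log2 -2.02, SE 0.17, 4.05-fold, adjusted p = 8.28e-11). The 3 day 60 arrays that stood apart were the lowest at Cenpa. Cdk1, the mitotic kinase, was detected on none of the 14 day 60 arrays and on all 15 day 4 arrays, at 8.42, 8.91 and 9.34, and was at least 2.91-fold lower at day 60 (adjusted p = 4.14e-19). Top2a, the mitotic topoisomerase, was also seen on no day 60 array and was at least 1.88-fold lower. Mcm5 and Mcm6, subunits of the replicative helicase, fell 2.93-fold and 2.73-fold with no overlap. Nusap1, a spindle protein, was at least 1.93-fold lower, and Lefty2, a secreted inhibitor of Nodal signalling, and Dkkl1 were at least 2.35-fold and 1.91-fold lower. Of 12 radial glia genes 4 fell, 1 rose and 7 did not pass; Fabp7, the brain lipid-binding protein, was 7.19, 7.61 and 8.19 at day 60, against 8.70, 9.69 and 10.33 at day 4 (3.60-fold lower), and vimentin (Vim) fell 3.36-fold. Cdkn1a, an inhibitor of cyclin-dependent kinases, fell 8.83-fold, to 7.46 to 8.75 at day 60, against 10.75 to 11.64 at day 4.

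Neuropeptide genes moved in both directions, with more of them higher. Of 28 measured peptides, granins and processing enzymes, 17 rose, 5 fell and 6 did not pass (median 0.47). Oxytocin (Oxt), the peptide of social and parental behaviour, was 13.13, 13.58 and 14.11 at day 60, against 9.88, 10.49 and 11.05 at day 4 (log2 3.09, SE 0.11, 8.51-fold, adjusted p = 1.63e-18). The ages did not come near to overlapping, and the difference was 3.02 in XX+T, 3.07 in XY and 3.18 in XX. Its sister peptide vasopressin (Avp), which arose from the same ancestral gene, was 11.93, 12.51 and 12.88 at day 60, against 10.80, 11.91 and 12.29 at day 4, a 1.64-fold difference (adjusted p = 1.49e-05) with overlap. Cartpt, an appetite-related peptide, rose 5.76-fold and Vip, the vasoactive intestinal peptide of the circadian system, 4.84-fold, both without overlap. Cck rose 3.77-fold, Nts (neurotensin) 2.75-fold, Trh (thyrotropin-releasing hormone) 2.39-fold, Nmu (neuromedin U) 2.22-fold and Gal (galanin) 1.89-fold.

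Kiss1, whose peptide drives gonadotropin-releasing hormone neurons, was 7.63, 9.08 and 10.02 at day 60, against 7.12, 7.32 and 7.94 at day 4, where 8 of 15 arrays detected it (3.10-fold, adjusted p = 2.97e-11). At day 60 its level was 7.77 to 9.09 in XX+T, 7.63 to 9.14 in XY and 9.42 to 10.02 in XX, so that the 5 XX pools lay above all others. At day 4 it was 7.12 to 7.40 in XX+T, 7.16 to 7.41 in XY and 7.18 to 7.94 in XX. The age difference was 1.22 in XX+T, 1.40 in XY and 2.27 in XX, and the test of that group difference did not pass after adjustment over all probes (adjusted p = 0.389). The 3 lowest day 60 values came from the arrays that stood apart, and without them the level was 8.88 to 9.09 in XX+T and 8.68 to 9.14 in XY, still below every XX pool.

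Falls among the peptides were led by neuropeptide Y (Npy), at 9.07, 9.59 and 10.28 at day 60, against 10.92, 11.63 and 12.07 at day 4 (log2 -1.99, SE 0.09, 3.98-fold, adjusted p = 1.10e-16), with no overlap. The granins Chga and Chgb, proteins of dense-core vesicles, fell 1.94-fold and 1.93-fold, both with overlap between ages. At day 60 the highest pool at Chgb was 11.27 in XX+T and 11.12 in XY, against 11.16 at most at day 4. The day 60 medians of Chgb were 9.42 in XX+T, 8.92 in XY and 9.32 in XX. The highest day 60 pool at Chga was 9.88 in XX+T and 9.64 in XY, against a lowest day 4 value of 9.18. The day 60 medians of Chga were 8.67 in XX+T, 8.49 in XY and 8.72 in XX. The day 60 XX pools lay below every day 4 pool at both genes. Vgf, another vesicle protein, fell 1.76-fold and prodynorphin (Pdyn) 1.52-fold. Of 18 measured receptors of peptides and hormones, 8 rose and 5 fell (median 0.04). Ntsr2 is given above with the astrocyte genes, and the next largest were Hcrtr1, an orexin receptor (2.00-fold lower), Ntsr1, a neurotensin receptor (1.92-fold lower), and Ghr, the growth hormone receptor (1.76-fold higher). Somatostatin (Sst) did not pass, at 12.68 to 13.10 at day 60, against 12.67 to 13.28 at day 4 (log2 -0.06, SE 0.06, adjusted p = 0.403), and under median centring it was higher at day 60 by 0.24 (adjusted p = 0.0181). The growth hormone-releasing hormone gene (Ghrh) rose 1.24-fold (adjusted p = 0.029) with overlap. Hcrt, the orexin precursor of the lateral hypothalamus, had a mean difference of 0.59 (adjusted p = 0.033) that was 1.93 in XX+T, 0.17 in XY and -0.33 in XX. Its level was 9.94 to 10.80 in XX+T, 7.63 to 10.40 in XY and 7.40 to 9.25 in XX at day 60, against 7.91 to 9.18 in XX+T, 7.87 to 8.89 in XY and 7.63 to 9.09 in XX at day 4. The test of the group difference did not pass (adjusted p = 0.256), and the age call was lost under 13 of 39 alternatives, among them leaving out the arrays that stood apart (0.46).

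**Figure D3:**
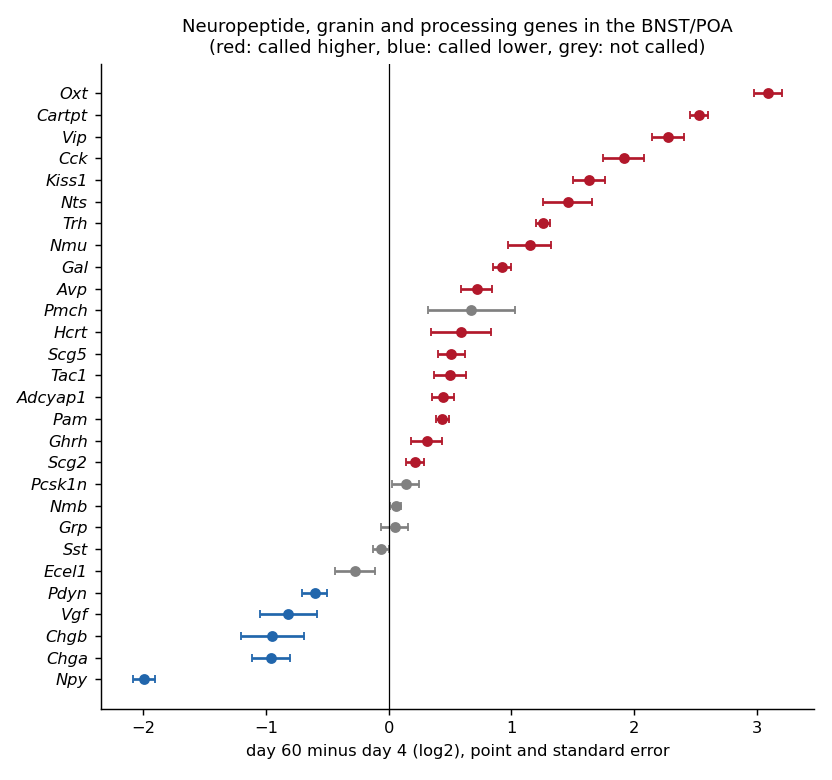
Difference in log2 intensity between day 60 and day 4 in the BNST/POA for the 28 measured neuropeptide, granin and processing genes, with standard errors from the fit; red points were called higher, blue lower and grey not called. Oxt, at 3.09, is the highest and Npy, at -1.99, the lowest.

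Some transcripts of neighbouring tissue varied widely between pools. Gh and Prl, hormones of the anterior pituitary, were 7.69, 10.16 and 12.20 and 7.29, 9.17 and 10.98 at day 60, against 6.82, 6.95 and 7.64 and 6.92, 6.97 and 7.19 at day 4. Gh was detected on 2 of 15 day 4 arrays, and its difference of 3.32 (SE 0.31, adjusted p = 4.45e-10) became 5.15 with normexp background correction. Prl, detected on no day 4 array, was at least 3.67-fold higher. In the striatum Gh was 6.89 to 10.62 at day 60, against 6.82 to 7.06 at day 4. Pmch, the melanin-concentrating hormone of the lateral hypothalamus, ranged over 9.96 to 14.38 at day 60, against 9.99 to 13.07 at day 4, and did not pass (limma adjusted p = 0.0923). At day 60 it was 13.11 to 14.38 in XX+T, 10.56 to 13.08 in XY and 9.96 to 13.16 in XX. As at Hcrt, the highest values at day 60 were in XX+T. Pmch was not among the genes that passed the test of a group difference. Ttr, the defining transcript of choroid plexus, ranged over 9.11 to 12.14 at day 60, against 9.18 to 14.11 at day 4 (adjusted p = 0.121). The mean of the 7 measured ependymal and choroid plexus genes was 8.73 to 9.42 at day 60, against 8.49 to 9.65 at day 4. The part of such tissue in the peptide differences was not tested.

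**Figure D4:**
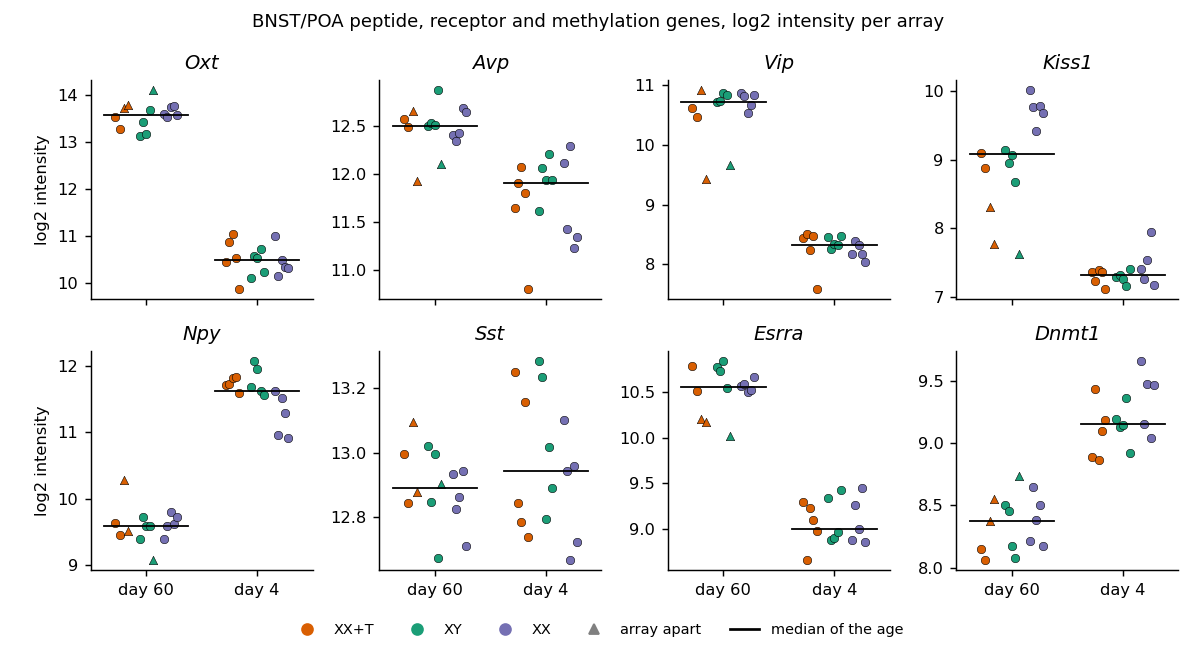
Log2 intensity on each of the 29 BNST/POA arrays for the peptides Oxt, Avp, Vip, Kiss1, Npy and Sst, the receptor Esrra and the methyltransferase Dnmt1, with day 60 left of day 4, points coloured by group, triangles for the 3 arrays that stood apart and lines at the median of each age. Oxt, Vip and Esrra are higher and Npy and Dnmt1 lower at day 60 on every array, Avp and Kiss1 overlap between ages and Sst does not separate them.

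Genes of sex steroid action and metabolism were chosen because this region is a target of testosterone. Of 28 in the list, 16 were measured, and of these 8 rose, 2 fell and 6 did not pass (median 0.18). Esrra, an orphan receptor related to the estrogen receptor and active in mitochondrial metabolism, was 10.01, 10.56 and 10.84 at day 60, against 8.66, 9.0 and 9.45 at day 4 (log2 1.44, SE 0.09, 2.71-fold, adjusted p = 1.84e-13). Sult1a1, a sulfotransferase of phenols and estrogens, was 8.99, 9.62 and 10.26 at day 60, against 7.39, 7.96 and 8.80 at day 4 and rose 3.03-fold. Neither gene overlapped between ages. Hsd3b7, which acts on hydroxylated cholesterol, rose 2.10-fold, Pgrmc1, a heme-binding membrane protein, 1.43-fold, and Cyp7b1, a hydroxylase of oxysterols and steroids, 1.17-fold. Hsd17b7, an enzyme of cholesterol and estradiol synthesis, fell 1.62-fold without overlap (log2 -0.70, SE 0.06, adjusted p = 1.94e-10), and Hsd17b4 fell 1.40-fold. The progesterone receptor Pgr was near the detection limit, seen on 7 of 14 day 60 and 11 of 15 day 4 arrays, with a difference of 0.05 (SE 0.04, adjusted p = 0.334). Fkbp4, a chaperone of steroid receptors, had a difference of -0.02 that did not pass and that turned to 0.21 (adjusted p = 0.00648) under median centring.

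Stress and clock genes rose in most cases. Of 13 clock genes, 11 rose and 1 fell (median 0.80), the one being Arntl, a core activator of the clock (log2 -0.22). Dbp, a clock-controlled transcription factor, was 11.63 to 13.05 at day 60, against 9.32 to 10.38 at day 4 (4.34-fold, adjusted p = 1.49e-14). Bhlhe40 rose 3.22-fold, Nr1d2 3.14-fold and Tef 2.79-fold, all without overlap. The sources used here give no hour of dissection. Of 11 glucocorticoid-related genes 7 rose and 3 fell; Cdkn1a, described above, was one of the 3. Hsd11b1, which regenerates corticosterone, rose 2.91-fold and Sgk1, a kinase induced by glucocorticoids, 2.31-fold. Fkbp5, another such target, fell 1.55-fold and was detected on 5 of 14 day 60 arrays, against all 15 day 4 arrays. In the thyroid hormone and retinoid list 5 rose and 5 fell of 13 (median 0.03). Dio3, which inactivates thyroid hormone, fell 1.68-fold, while Klf9 and Hr, both thyroid hormone targets, rose 2.89-fold and 2.34-fold, and Aldh1a1, a retinoic acid enzyme, was at least 4.05-fold higher.

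Genes linked to DNA methylation and demethylation, a list that also holds proteins that bind methylated DNA and repair enzymes, were mostly lower at day 60. Of 14 measured members of that list, 8 fell, 3 rose and 3 did not pass (median -0.27). Under median centring 7 fell and 4 rose (median -0.15). The only DNA methyltransferases among them were Dnmt1 and Dnmt3b. Dnmt1, the maintenance methyltransferase, was 8.06, 8.38 and 8.74 at day 60, against 8.87, 9.15 and 9.66 at day 4 (log2 -0.85, SE 0.08, 1.80-fold, adjusted p = 6.98e-10), with no overlap. Its partner Uhrf1, which binds hemimethylated sites at replication forks, was detected on no day 60 array and on all day 4 arrays and was at least 2.04-fold lower. Tdg, a glycosylase of active demethylation, fell 2.28-fold, and Dnmt3b, a de novo methyltransferase, 1.37-fold, with 4 of 14 day 60 arrays detecting it. The 3 members that rose were all of the Gadd45 family, which has been linked to DNA repair and demethylation: Gadd45a 2.16-fold, Gadd45g 1.85-fold and Gadd45b 1.16-fold. Gadd45a was 8.86, 9.38 and 9.62 at day 60, against 8.06, 8.25 and 8.39 at day 4. The probes of Mbd1 disagreed in direction, at -0.27 and 0.15, and its count rests on the brighter one. Of 28 chromatin regulators, 14 fell and 8 rose (median -0.21). Actl6b, a neuronal subunit of the BAF complex, fell 2.39-fold, Kdm1a, a histone demethylase, 2.14-fold and Hdac2, a histone deacetylase, 2.07-fold, whereas Hdac11 rose 2.77-fold.

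Genes of transmission moved in both directions. Of 13 genes of GABA synthesis and reception, 6 fell and 3 rose (median -0.18), but under median centring 4 fell and 5 rose (median 0.04). Gabrg1, a receptor subunit, was 9.24, 10.43 and 10.65 at day 60, against 8.26, 8.57 and 9.15 at day 4 (3.08-fold, adjusted p = 3.51e-11), and Gabrd, the subunit of extrasynaptic receptors, rose 2.27-fold. Slc12a2, a chloride importer, rose 1.86-fold and the scaffold protein gephyrin (Gphn) fell 1.84-fold, both without overlap. Of 14 glutamate genes, 9 fell and 2 rose (median -0.47), the largest being Grik1, a kainate receptor subunit (3.04-fold lower), and Gria1, an AMPA receptor subunit (1.86-fold higher). Of 20 genes of synaptic vesicles 11 fell and 3 rose (median -0.36), but under median centring only 5 fell and 5 rose. Stx1a, a syntaxin of the release machinery, fell 3.96-fold and Vamp1, a vesicle protein of fast synapses, rose 3.29-fold, neither with overlap. Of 13 channels, 5 rose and 4 fell; Scn1a, the sodium channel of fast-spiking neurons, rose 2.75-fold and Kcnd2, a potassium channel, fell 2.43-fold. Of 11 mature neuron genes 4 rose and 5 fell (median -0.11), and under median centring 5 rose and 4 fell. Camk2a, the synaptic kinase, rose 2.14-fold, while Stmn2, Rbfox3 and Syt1 of that list fell. Parvalbumin (Pvalb), a calcium buffer, rose 5.90-fold, at 11.65, 12.92 and 13.52 at day 60, against 9.10, 10.38 and 11.19 at day 4. Among monoamine genes Maob, a glial amine oxidase, rose 3.30-fold and Chat, the acetylcholine synthase, 1.89-fold.

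The extracellular matrix list split. Of 18 genes 10 fell and 6 rose (median -0.36), and under median centring 8 fell and 8 rose. Ncan, the neurocan core protein of juvenile matrix, was 7.30, 7.65 and 9.73 at day 60, against 9.26, 10.66 and 11.69 at day 4 (5.73-fold lower, adjusted p = 6.18e-09), and Mmp24, a membrane-bound matrix metalloproteinase, fell 5.97-fold. Link proteins of adult nets went the other way: Hapln2, of the node of Ranvier, was at least 3.17-fold higher, and Hapln4 rose 3.13-fold. Developmental transcription factors fell in 11 of 16 cases (median -0.45), led by Dlx1 of GABAergic neurons (2.33-fold). Markers used for neurons of this region fell in 6 of 9 cases and rose in 2 (median -0.60), with Hap1, a huntingtin-associated protein dense in the hypothalamus, at 12.18, 12.68 and 14.04 at day 60, against 13.28, 14.08 and 14.66 at day 4 (2.13-fold lower), and Zic1, a transcription factor, 1.92-fold lower. The 2 that rose were Gal, without overlap, and Hcrt, whose call was lost under 13 of 39 alternatives. Without the arrays that stood apart 1 rose and 6 fell. Mean levels of the 13 striatal neuron genes overlapped between ages, at 8.84 to 9.37 at day 60, against 8.98 to 9.38 at day 4.

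Growth and death genes were mainly lower at day 60 with quantile normalization. None of 15 imprinted and fetal growth genes rose and 11 fell (median -0.29), although under median centring 3 rose and 8 fell. Without the arrays that stood apart 14 fell (median -0.56), and with normexp correction 11 fell (median -0.56). Cdkn1c, an imprinted growth inhibitor, was 8.72, 9.42 and 9.62 at day 60, against 10.75, 11.49 and 11.77 at day 4 (4.26-fold lower, adjusted p = 3.57e-16), Igfbp5 fell 3.46-fold and Igf2bp3, an RNA-binding protein of the fetus, was at least 1.73-fold lower. The imprinted gene Mkrn3, an inhibitor of puberty onset, fell 11.1-fold, at 7.63, 8.29 and 8.66 at day 60, against 11.35, 11.68 and 12.10 at day 4. Of 19 cell death genes 11 fell and 6 rose, while under median centring 7 fell and 7 rose. The p53 target Bbc3 fell 4.38-fold and Apaf1, the core of the apoptosome, 3.07-fold, both without overlap, and Fas rose 2.10-fold. In lipid synthesis 10 of 19 fell and 6 rose. Fdps and Sqle, of the sterol pathway, fell 2.73-fold and 2.59-fold, while Scd1, a fatty acid desaturase, rose 3.44-fold and Apod, an apolipoprotein of glia, 6.96-fold. Respiratory chain genes rose in 21 of 29 cases (median 0.26), among them the complex I subunits Ndufb5 (2.15-fold) and Ndufb2 (2.14-fold). Ribosomal protein genes rose in 14 of 23 and fell in 4.

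Blood, vessel and meningeal genes were measured as signs of other cells. Of 6 blood genes 2 rose and 3 fell, with a hemoglobin chain, Hba-a1, 1.85-fold lower at day 60 (a probe that may not separate the near-identical alpha chains). Of 11 endothelial genes 4 rose and 3 fell (median -0.03), with Ly6c1 3.41-fold higher. Of 10 mural, fibroblast and meningeal genes 4 rose and 2 fell (median 0.01). Igfbp2 was 3.10-fold lower, and the 3 members over 2-fold higher were Acta2, Dcn and Ptgds, all with overlap between ages.

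The age difference was then taken within each group of mice. It passed at an adjusted p under 0.05 for 6348 probes in XX+T, 7468 in XY and 7688 in XX. Median differences of the myelin list were 2.98 in XX+T, 3.07 in XY and 3.02 in XX, and those of the immature neuron list -0.98 in XX+T, -1.05 in XY and -1.06 in XX. Whether the age difference itself varied with the group was tested with an F test of both interaction terms. It passed for 8 of 13731 probes, with 890 probes at an unadjusted p under 0.05, and for 3 of 9560 genes (0.0314%). Leaving out single arrays changed the count of probes to between 0 and 17. Gal3st1, which makes the sulfatide of myelin, was 9.63 to 9.94 in XX+T, 9.69 to 9.96 in XY and 9.99 to 10.37 in XX at day 60, against 9.63 to 9.89 in XX+T, 9.56 to 9.95 in XY and 9.11 to 9.59 in XX at day 4. The age difference was 0.10 in XX+T, 0.06 in XY and 0.73 in XX (F test adjusted p = 0.0413). The XX pools were the highest at day 60 and the lowest, apart from an overlap with XY, at day 4. Tmem98, a membrane protein, rose by 0.65 in XX+T, 0.45 in XY and 1.10 in XX (adjusted p = 0.0413), and Rmnd5b, a ubiquitin ligase subunit, had differences of -0.14 in XX+T, -0.47 in XY and 0.10 in XX (adjusted p = 0.0438).

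Age differences in the BNST/POA were compared with those in the striatum, whose 13 day 60 and 15 day 4 arrays share no array with it. The sources used here do not say whether pools of the regions came from the same mice, and the test treated all arrays as independent. The difference between the regions passed for 6497 probes and for 4485 of 9560 genes (46.9%), 2246 with the more positive age difference in the BNST/POA and 2239 with the more negative. Both regions passed the age test at 5983 genes, and at 482 of these in opposite directions. Sytl4, which binds secretory granules, was 9.95, 10.78 and 11.25 at day 60, against 7.30, 7.38 and 7.63 at day 4 in the BNST/POA (9.88-fold), while its age difference in the striatum was 0.06 (difference between regions 3.24, SE 0.11, adjusted p = 1.23e-29). Cxcl14, a chemokine, rose by 1.90 in the BNST/POA and fell by 1.23 in the striatum. Oxt rose by 3.09 in the BNST/POA and by 0.73 in the striatum (difference 2.36, SE 0.17, adjusted p = 4.89e-16). Nectin3 and Igfbpl1 fell by 0.87 each in the BNST/POA and by 3.05 and 3.10 in the striatum. In the other direction stood Pvalb (2.56 in the BNST/POA, 6.41 in the striatum), the sodium channel subunit Scn4b (0.59 and 4.25), the calcium-binding Tesc (1.18 and 3.65), Pmch (0.67, not called, and 3.29) and Slc17a6, the vesicular glutamate transporter of the diencephalon, which fell by 0.84 in the BNST/POA and rose by 1.56 in the striatum. Slc17a6 was 12.22, 12.61 and 13.69 at day 60, against 13.26, 13.63 and 13.91 at day 4 in the BNST/POA. Pmch varied widely between striatal pools, at 7.78 to 13.50 at day 60, against 6.92 to 7.16 at day 4, near the detection limit. Igfbpl1 was 7.01 to 7.39 on the day 60 BNST/POA arrays, also near that limit. Its age difference there was -1.98 to -0.68 over the alternatives, so the size of its fall depends on the processing.

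By list, 12 of 13 microglial genes had a lower age difference in the BNST/POA than in striatal tissue. The median over the list was 0.78 in the BNST/POA, against 1.59 in the striatum. For C1qb the age difference in the BNST/POA minus that in the striatum was -1.40 (SE 0.09, adjusted p = 5.98e-19). Of the 19 immature neuron genes 10 had the more positive, that is the smaller negative, difference in the BNST/POA and 2 the more negative, and of the 19 myelin genes 1 was more positive, 8 more negative and 10 did not pass.

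**Figure D5:**
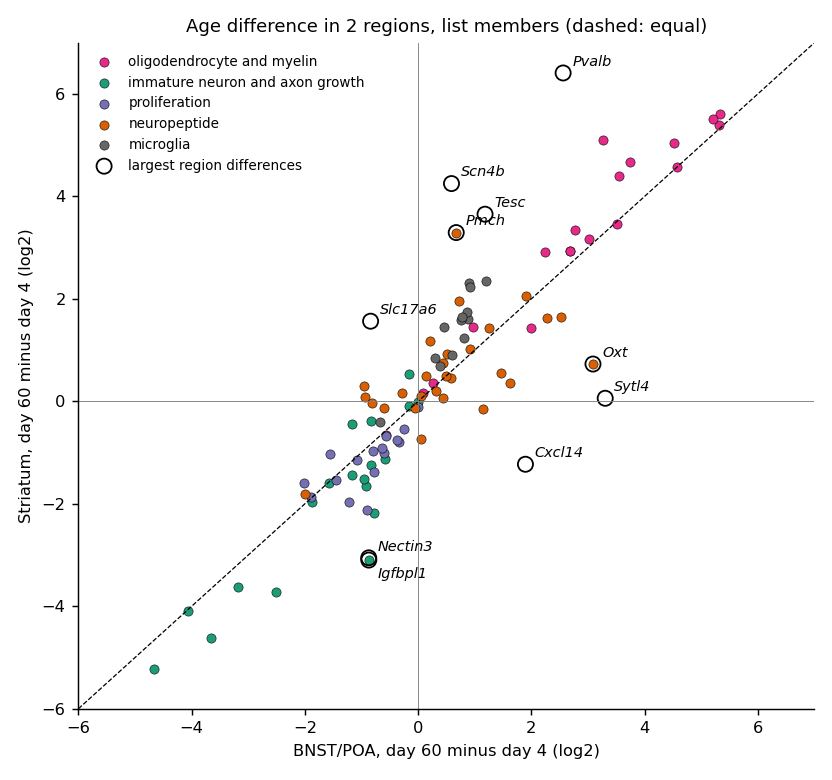
Age difference (day 60 minus day 4, log2) in the BNST/POA on the horizontal axis and in the striatum on the vertical axis for the members of 5 gene lists, with the 10 genes of largest region difference ringed and named; the dashed line marks equal differences. Myelin genes lie at the upper right and immature neuron genes at the lower left, and Oxt, Sytl4 and Cxcl14 lie well below it.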

How the data were processed

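Pools of BNST/POA or striatal RNA were hybridised to Illumina MouseRef-8 arrays, 1 array per pool. The authors deposited a non-normalized table of probe intensity with a detection p-value for each probe and array, and a second table of log2 values that they had log2-transformed and quantile-normalized after removing outlier arrays. The intensity table was used here; the deposited log2 table served as an alternative. The 114 further columns of the intensity table, bead numbers and bead standard errors, were not used. Arrays were scanned on a BeadArray or an iScan reader, and the sources used here do not say which array was read on which, so the reader could not be entered as a batch. Intensities were log2-transformed and quantile-normalized over the 57 arrays, and probes with a detection p-value under 0.05 on at least 20 arrays were kept (13731 of 25697). The number of arrays limits the precision. Of the kept probes, 12944 had 1 gene name in the platform annotation and 787 had none; each gene was represented by its brightest probe, and 67 genes had probes called in opposite directions.

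A linear model with 1 mean for each group was fitted to the 29 BNST/POA arrays in limma (version 3.58.1, R version 4.3.3), with Benjamini-Hochberg adjustment over all kept probes. Age was tested on the average of the groups, within each group and, with an F test, for a difference between groups. The region difference was tested over all 57 arrays, taken as independent. The fit was tested on simulated data with known changes. Alternatives changed the background correction, the scaling, the filter, the array weights, a block for the pool number and the arrays used.

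Named genes were the 10 largest called changes each way without overlap, the 5 largest bounds each way, the 5 largest region differences each way, the group differences, any measured neuropeptide, sex steroid or DNA methylation gene, and the up to 4 largest called changes of each other list. Prl, Ttr, Top2a, Olig1, Fkbp5, Laptm5, Serping1 and Arntl fall outside this rule and were named after their values were seen. The 40 gene lists and their members were chosen with earlier results of these data known.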

Additional observations from a re-analysis of the deposited data

Results flagged for a closer look

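Within the groups of 4 or 5 pools, 4 of 24 checks found an array far from the others, where chance alone gives about 1 in 20. The checks took several measures on the same arrays and are not independent, so these rates cannot be compared directly. The day 60 XY pool 6 had a raw interquartile range of 2.101, against 1.223 to 1.457 in the other day 60 XY pools, a mean correlation with its group of 0.9101, against 0.9674 to 0.9729, and a mean myelin gene level of 12.194, against 11.662 to 11.789. The day 60 XX pool 3 had a mean myelin gene level of 11.977, against 11.917 to 11.933 in the other XX pools.

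The age difference differed between the BNST/POA and the striatum at 6497 probes (limma). The most positive values, BNST/POA minus striatum, were 3.245 for Sytl4, 3.123 for Cxcl14, 2.36 for Oxt, 2.227 for Igfbpl1 and 2.182 for Nectin3. The most negative were -3.848 for Pvalb, -3.661 for Scn4b, -2.621 for Pmch, -2.47 for Tesc and -2.403 for Slc17a6.

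The age difference differed between XX+T, XY and XX mice at 8 probes, among them Gal3st1 (adjusted p = 0.0413), Tmem98 (adjusted p = 0.0413) and Rmnd5b (adjusted p = 0.0438, limma F test).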

How the results depend on the processing

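Of 219 named genes, 199 kept their side of the threshold under every alternative that gave them a value, including those without 1 array. They also kept their direction wherever they were called before or after the change. A change of sign between uncalled values was not counted, as at Srd5a3 (-0.041 to 0.036). Over probes detected on all arrays of an age, 209 had a value. The genes that turned and were then called were Fkbp4 (0.21) and Sst (0.24) under median centring and Mbd3 (-0.16) with array weights. None of them had passed before, and the cause was not tested. With normexp background correction, 1286 probes were over 2-fold higher and 1422 over 2-fold lower, against 697 and 678. The count of age by group differences, 8, was 0 with normexp and with median centring, 5 over probes detected on all arrays of an age, 470 with array weights, 27 with the replicate block and 19 without the 3 arrays that stood apart. Correlations of same-numbered pools were -0.74 to 0.543, with 5 of 12 over 0.1, which does not settle whether the pool numbers pair the samples. The block on pool number gave 10696 age calls against 9872, and 8153 against 6348 within XX+T. The paper states that each beadchip carried a sample of every group. The beadchip was not entered in the fit.

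Leaving out each array in turn gave 9571 to 10413 age calls, 4595 to 5069 higher, 4954 to 5344 lower, 675 to 754 over 2-fold higher and 642 to 764 over 2-fold lower. It gave 5350 to 7068 within XX+T, 6612 to 8838 within XY and 6920 to 8283 within XX, 6298 to 6682 by region and 0 to 17 by group, the lowest without day 4 XX pool 2 and the highest without day 4 XX pool 1. No named gene that was called, with all arrays or with an array left out, changed direction. Quantile normalization sets the arrays to 1 distribution, so a shift shared by most genes cannot be seen, and 74 genes at day 4 and 128 at day 60 were detected on no array, so that their changes are bounds.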
